A study of Mus musculus with 9 samples.

Results

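Outside the major histocompatibility complex (MHC), the NLRC5 ChIP-seq peak lists of mouse T cells held recurrent peaks close to the transcription start sites (TSSs) of Ifrd2, Chchd4, Tmem43, Lars and Phf12. These 5 genes of 21951 protein-coding genes were selected on the presence of a peak within 1.5 kb of their TSS in each of the 5 wild type (WT) lists, so their presence in WT is a description and not a finding. Chchd4 and Tmem43 share 1 site, which leaves 4 sites of the 7980 obtained by merging all lists, and 23 peaks of 8593, 1 of which (in WT A, near Ifrd2) lies outside these sites. T cells of 4 genotypes were sorted magnetically from mice aged 6 to 12 weeks, 5 mice were pooled per genotype, and the same polyclonal antibody against NLRC5 was used throughout. WT, Nlrc5F/F and Nlrc5-/- mice had a C57Bl/6 (H2b) background, and Rfx5-/- mice a mixed Sv129/C57Bl/6 (H2b) background, so that for Rfx5-/- the genotype and the strain cannot be told apart. Nlrc5F/F mice carry floxed Nlrc5 alleles and served the study as a further control beside WT. The WT lists A to E come from read subsets of a single library (pseudo-replicates). Reads from Nlrc5-/- cells were the negative control for peak calling, and the methods do not name the control of each list. The lists therefore represent 1 library per genotype, and differences among A to E do not show the spread between animals. No list of the Nlrc5-/- cells or of the undivided WT reads was used here.

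NLRC5 is a nuclear NLR protein that activates MHC class I genes in lymphocytes. It does not bind DNA by itself but is recruited by an enhanceosome, in which the RFX complex (Rfx5, Rfxap, Rfxank), CREB/ATF proteins and NF-Y occupy the S-X-Y module of class I promoters, a row of 3 motifs called the S, X and Y boxes. Rfx5 is therefore needed at these promoters. The members are not class I genes. Ifrd2 encodes an interferon-related developmental regulator that associates with inactive ribosomes. Chchd4 encodes the oxidoreductase that drives protein import into the mitochondrial intermembrane space. Tmem43 encodes a protein of the inner nuclear membrane. Lars encodes the cytosolic leucyl-tRNA synthetase, and Phf12 a PHD finger subunit of the Sin3 corepressor complex.

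A stretch of 12 bases recurs at the 4 sites, and the sequences of 3 of them are shown. Coordinates are GRCm38, the sequences were read from GRCm38.p6 and are on the plus strand. The interval for Ifrd2, chr9:107587441-107587641, runs from the outermost start of the WT peaks to the base before the TSS. The interval for Chchd4 and Tmem43, chr6:91473547-91473702, is the whole stretch between the TSSs of these divergent genes. The interval for Phf12, chr11:77981782-77981944, is the whole span of the WT peaks. Capitals mark ACTAC, 3 bases of any kind, then TCCC.
Ifrd2: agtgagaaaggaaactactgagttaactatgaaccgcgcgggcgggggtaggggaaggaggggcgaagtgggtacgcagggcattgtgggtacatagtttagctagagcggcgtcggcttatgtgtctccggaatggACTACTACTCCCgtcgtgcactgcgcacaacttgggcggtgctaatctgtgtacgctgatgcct
Chchd4 and Tmem43: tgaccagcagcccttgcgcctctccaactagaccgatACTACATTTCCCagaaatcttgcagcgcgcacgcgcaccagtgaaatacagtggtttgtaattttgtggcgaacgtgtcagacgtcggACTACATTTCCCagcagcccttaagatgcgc
Phf12: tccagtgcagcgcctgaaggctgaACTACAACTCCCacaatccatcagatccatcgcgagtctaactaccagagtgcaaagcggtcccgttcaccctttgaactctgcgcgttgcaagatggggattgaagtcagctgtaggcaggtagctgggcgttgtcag

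This element was defined after the sequences of the member sites, Lars included, had been read, so its presence at any of the 4 sites is no independent evidence. It was searched on both strands in a strict form (ACTACA, 2 bases of any kind, then TCCC) and in the relaxed form given above, which includes the strict one. It resembles the core of a longer element known as a binding site of the zinc finger protein ZFP143 (human ZNF143) at many housekeeping promoters. Binding of that protein was not measured here, and a match is a description of the letters only. The strict form was found at 3 of the 4 sites (Chchd4/Tmem43, Lars and Phf12) and the relaxed form at all 4. At each of them 1 copy lay inside the stretch shared by all 5 WT peaks. Sites at genes that are not members also held the element, shown here in the direction of the element with 4 bases before it and 14 after it. Prcc had a peak in all 5 WT lists, and Zfp235, Zfp317 and Xrra1 in 4 of them. The copies shown lay in all WT peaks of their site except that of Xrra1, which lay in 2 of 4.
Prcc, chr3:87885758-87885787, minus strand: acaaACTACGAATCCCaggaatcactgcat
Zfp235, chr7:24134124-24134153, minus strand: tggaACTACAATTCCCagaatgcgtcagcg
Zfp317, chr9:19621907-19621936, plus strand: agaaACTACATTTCCCataaaccatttcaa
Xrra1, chr7:99859007-99859036, minus strand: tctaACTACAAGTCCCgtcaagccccgcgg

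Class I promoters carried other letters. In the modules of B2m (the light chain of class I molecules) and H2-K1 (a class I heavy chain), capitals mark the S box match AACNT, the 3-prime part of the X box GNTGAC and the Y box match ATTGG.
B2m, chr2:122147576-122147638, plus strand: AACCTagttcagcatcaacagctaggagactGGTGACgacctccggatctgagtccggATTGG
H2-K1, chr17:34000359-34000421, minus strand: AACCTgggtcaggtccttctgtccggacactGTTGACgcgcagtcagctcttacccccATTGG
Within 300 bp windows centred on the sites, the 3 matches stood in this order and spacing at 6 of the 9 class I sites described below, at 0 of the 4 member sites and in 10 of 21931 coding promoters (0.0456%), taken from 250 bp upstream to 50 bp downstream of the TSS. The S, X and Y matches and their spacing were taken from class I promoters, so the class I counts are no independent evidence. ATTGG alone was present at 0 of 4 member sites and 7 of 9 class I sites, against 39.0% of promoters. GNTGAC was present at Phf12 only among the member sites, at 7 of 9 class I sites and in 39.3% of promoters. AACNT, a short and frequent match, was present at 3 of 4 member sites, at 9 of 9 class I sites and in 73.9% of promoters. Core motifs of RFX and CREB proteins (GTTGCC and TGACGT) were found at 0 of the 4 member sites and at 1 and 2 of the 9 class I sites, against 12.0% and 8.65% of promoters, so that these matches do not separate the groups. The element of the member sites was found at 0 of 11 class I sites in either form.

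The WT lists held 459 (A), 529 (B), 1436 (C), 1043 (D) and 1207 (E) peaks, the Nlrc5F/F list 1949 and the Rfx5-/- list 1970. The narrowest peak was 118 bp in A and 124 bp in B but 95 to 102 bp in C to E, and whether the calling settings differed between these lists was not tested. The lists are those from before the study's filter on reproducibility (irreproducible discovery rate), which was not applied here, so the member peaks are given as called at the relaxed threshold. The score of a peak is the −log10 p-value of MACS2, and the lowest score in each list was just above 3, the value that corresponds to the calling threshold of 0.001. A rank is the place of a peak by score within its list, where 1 is the highest and tied peaks get the best place, so ranks of lists of different length are not on 1 scale. Read counts are not part of the lists, so how deeply a single peak was sequenced is unknown. For whole libraries the paper gives a higher minimum read total for WT than for the other samples. It gives equal read totals for the WT pseudo-replicates. What library depth did to the presence and score of peaks in Nlrc5F/F and Rfx5-/- was not tested. A site without a listed peak is thus one at which no peak passed the threshold in that library, which does not show that NLRC5 was absent there.

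Ifrd2 (ENSMUSG00000010048.10, plus strand, TSS at position 107587642 of chromosome 9) was the only member with a peak in all 7 lists. Its WT scores were 6.52 in A, 11.6 in B, 5.09 in C, 7.37 in D and 11.8 in E. Its WT ranks were 72, 19, 334, 61 and 23 in the same order. Many peaks shared its score in C (262 peaks, ranks 334 to 595), D (34 peaks, ranks 61 to 94) and A (26 peaks, ranks 72 to 97). As a share of the list the ranks were 15.7% in A, 3.59% in B, 23.3% in C, 5.85% in D and 1.91% in E. The scores of B and E were about the same and those of A, C and D were lower. The score was 9.44 in Nlrc5F/F (rank 19) and 9.10 in Rfx5-/- (rank 15), both inside the range of the WT scores. The peaks of these libraries overlapped the WT peaks, but their centres differed. The 5 WT peaks were 130 to 254 bp wide and had their centres between −91.5 and −45.5 bp from the TSS, where minus is upstream. The Nlrc5F/F peak was 138 bp wide, with its centre at −84.5 bp, and covered 95 of the 124 bp shared by the WT peaks, and the Rfx5-/- peak was 241 bp wide, with its centre at 8.0 bp downstream of the TSS and outside the range of the WT centres, and covered all 124. The 97 bp shared by the latter peaks held the element, whose midpoint is 58.5 bp upstream of the TSS. The WT span of 264 bp covered 63 bp of the first exon of Ifrd2 (5′ UTR). The antisense gene Gm16343, of unknown function, starts 217 bp upstream of Ifrd2 on the other strand, 16 bp outside the WT span. A further peak, 118 bp wide, was listed in WT A only, with its centre 731.5 bp downstream of the TSS and a score of 4.65.

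Chchd4 (ENSMUSG00000034203.8, minus strand) and Tmem43 (ENSMUSG00000030095.10, plus strand) start 157 bp apart on chromosome 6, at positions 91473546 and 91473703, and point away from each other. A single peak per WT list lay between them, so that the list cannot assign it to either gene. Its scores were 12.1 in A, 8.37 in B, 6.38 in C, 8.30 in D and 6.37 in E, with ranks of 16, 42, 132, 51 and 111. A stood above the other 4, and C and E were lowest. The peaks were 139 to 170 bp wide and shared 106 bp. Their centres ranged over 35 bp. The WT span of 188 bp reached 25 bp into the 5′ UTR of Chchd4 and 7 bp into that of Tmem43, and the rest was intergenic. The element was present as 2 copies, 88 bp apart and in the same direction. The copy nearer to Chchd4, 43.5 bp upstream of its TSS, lay in all 5 WT peaks, and the copy nearer to Tmem43, 25.5 bp upstream of its TSS, lay in 4 of them. No peak was listed here in Nlrc5F/F or in Rfx5-/-.

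Phf12 (ENSMUSG00000037791.15, plus strand, TSS at position 77982754 of chromosome 11) had the highest WT median score of the 4 sites and the most distant peak. Its scores were 11.6 in A, 17.5 in B, 10.3 in C, 11.7 in D and 9.91 in E, with ranks of 17, 12, 28, 18 and 37. B stood above the other 4, which differed little. The peaks were 146 to 155 bp wide and shared 138 bp of a WT span of 163 bp, the smallest scatter of position among the 4 sites. Their centres lay between −895.5 and −883.5 bp from the TSS, outside the promoter window of 500 bp upstream to 50 bp downstream that the study used. No annotated exon or other TSS lay within the span, so the peak is intergenic and its link to Phf12 rests on distance alone. The midpoint of the element was 942.5 bp upstream of the TSS, inside all 5 WT peaks. No peak was listed in Nlrc5F/F or in Rfx5-/-.

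Lars (ENSMUSG00000024493.9, minus strand) has its TSS at position 42262194 of chromosome 18. Its scores were 6.01 in A, 9.07 in B, 10.5 in C, 8.35 in D and 5.36 in E, with ranks of 118, 40, 25, 49 and 268. C was highest here and A and E were lowest, another order than at the other sites. The peaks were 118 to 170 bp wide and shared 95 bp, and the TSS lay inside each of them. The WT span of 203 bp covered 72 bp of the first exon (5′ UTR). The element was present as 2 copies on opposite strands. The copy 13.5 bp upstream of the TSS lay in all 5 WT peaks, and the copy 38.5 bp downstream lay in 2. No peak was listed in Nlrc5F/F or in Rfx5-/-.

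**Figure D1:**
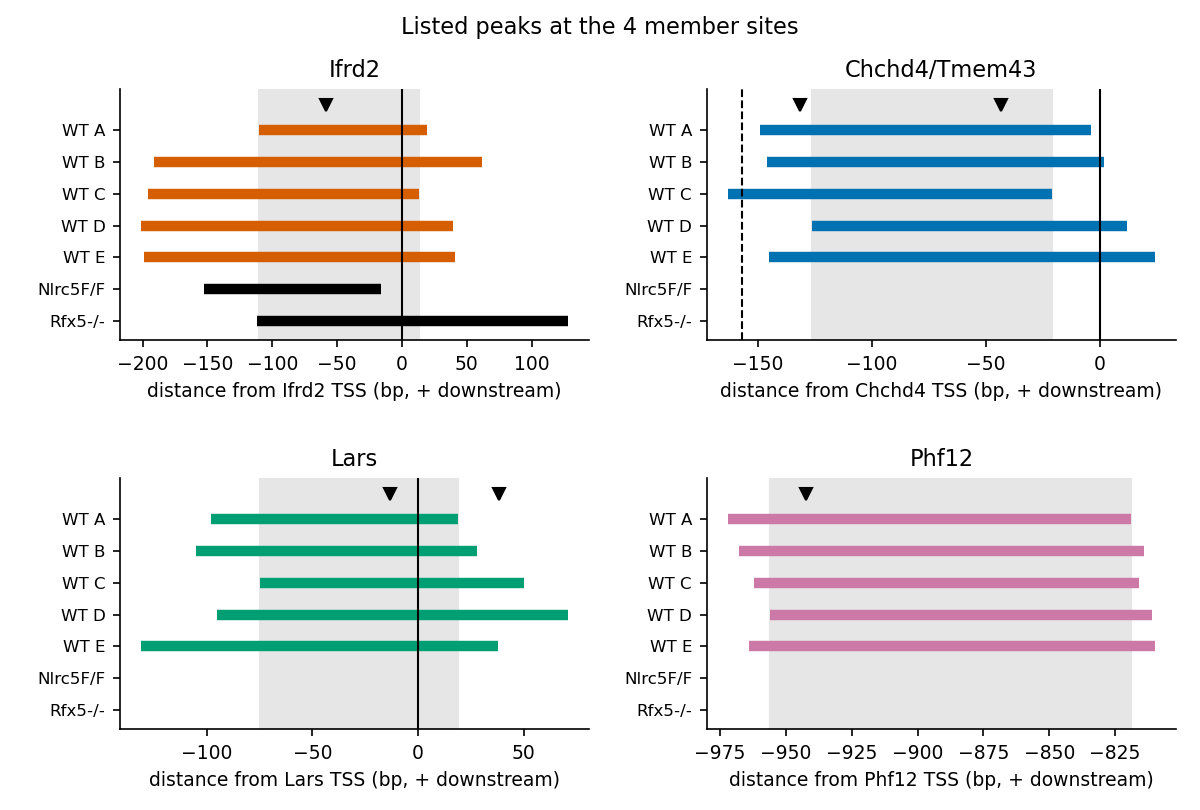
Extents of the listed peaks at the 4 member sites. The x axis is the distance in bp from the TSS of the named gene (Chchd4 in the shared panel), with downstream positive, and each bar is a peak in the list named on the y axis, coloured for WT and black for Nlrc5F/F and Rfx5-/-. Grey shading marks the stretch shared by all 5 WT peaks, solid lines the TSS, the dashed line the TSS of Tmem43 and triangles the copies of the element. The TSS of Phf12 and the further WT A peak 731.5 bp downstream of Ifrd2 lie outside the panels. Only the Ifrd2 panel holds black bars.

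No order of the pseudo-replicates was common to the members. The highest score was in E at Ifrd2, in A at Chchd4/Tmem43, in C at Lars and in B at Phf12. The WT medians were 7.37 for Ifrd2, 8.30 for Chchd4/Tmem43, 8.35 for Lars and 11.6 for Phf12. The ranges of all 4 sites overlapped. Within lists, Phf12 scored highest in B and D and second in A, C and E. Chchd4/Tmem43 scored highest in A, Lars in C and Ifrd2 in E. No site led in every list, and the order of the medians was not tested.

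The presence of the members in the other genotypes was compared with that of class I promoters, which need Rfx5. In WT, 24 of 21951 coding genes (0.109%) had a peak within 1.5 kb of the TSS in all 5 lists and 709 (3.23%) in any of them. The 5 members belong to the 24 by choice. In Nlrc5F/F, 1 of the 5 members had a peak, against 162 coding genes in all (0.738%), and in Rfx5-/- the same member, Ifrd2, had one, against 139 (0.633%). Among the 24 genes, the 11 class I pathway genes all had a peak in Nlrc5F/F and 0 in Rfx5-/-. The other 8 genes had 0 in Nlrc5F/F and 7 in Rfx5-/-. These 7 were 6 mitochondrial genes and Prcc, and the gene without one was H2-M3. The paper calls H2-M3 a non-classical class I gene, but it was not counted among the 11 here. The class I list holds the promoter targets that the paper reports from these same libraries. The class I counts, here and by site, are therefore no independent evidence. The Nlrc5F/F list held 0 mitochondrial peaks anywhere, against 6 to 11 in each of the other lists. Neighbouring mitochondrial genes also share peaks within 1.5 kb, so the 6 genes are not separate observations. With 1 library per genotype these differences were not tested.

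Counted by sites, 32 sites had a peak in all 5 WT lists, of which 17 (53.1%) had one in Nlrc5F/F and 10 (31.2%) in Rfx5-/-. The member sites contributed 1 of 4 to each. Class I sites contributed 9 of 11 to Nlrc5F/F and 0 of 11 to Rfx5-/-. These 9 lie at the promoters of H2-D1, H2-T10/Gm19684, H2-Q7, H2-K1, H2-Q4, B2m, H2-Q6, H2-T22/Gm6034 and Tap1/Psmb9, and the other 2 flank that of H2-Q7. The member sites stood at places 15 (Phf12), 23 (Lars), 25 (Chchd4/Tmem43) and 27 (Ifrd2) of the 32 by WT median score. Among the 9 recurrent sites that are not members and have a WT median within the range of the members, 3 had a peak in Nlrc5F/F and 3 in Rfx5-/-. The 3 in Nlrc5F/F lie between positions 15037379 and 15511741 of chromosome 5, where 32.3% to 54.3% of 50-base windows occurred once in the genome. Those in Rfx5-/- lie in this group and in mitochondrial DNA. The 9 also include 5 sites without a peak in either genotype. These lie at H2-M3, at H2-K2, beside H2-Q7 and, outside the MHC and away from coding promoters, on chromosomes 1 and X.

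**Figure D2:**
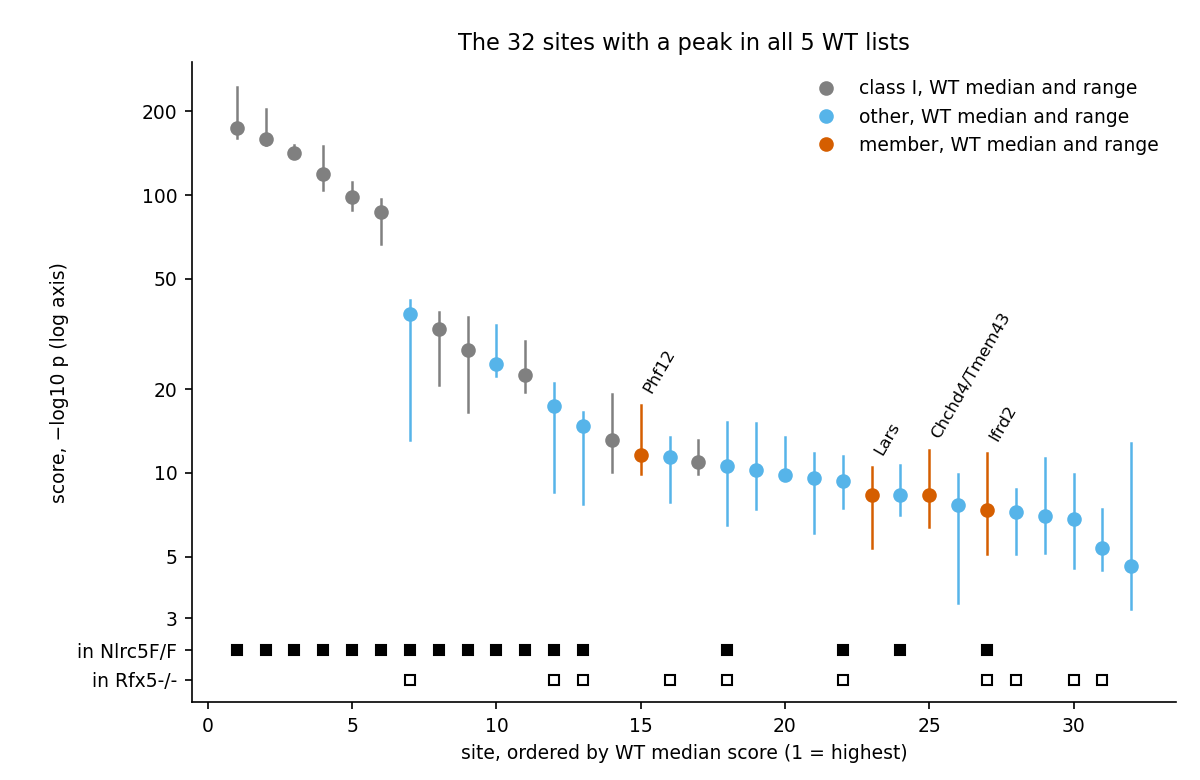
The 32 sites with a peak in all 5 WT lists, ordered on the x axis by WT median score, with the WT median (point) and range (line) of the score (−log10 p, log axis). Squares at the bottom mark a peak in Nlrc5F/F (filled) or Rfx5-/- (open). The members lie at places 15 to 27, and Ifrd2 is the only one of them with squares.

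The members had lower scores in every WT list than the 9 class I sites, which are those with a peak in Nlrc5F/F. The 2 class I sites without such a peak, beside H2-Q7, had WT medians of 13.11 and 10.97, against up to 11.6 for the members. The gap in score thus holds for the 9 only, which were selected by their Nlrc5F/F peak. The highest member score in a list was 10.5 to 17.5, and the lowest of the 9 class I scores in the same lists was 16.6 to 27.7. Within no list did these ranges overlap. The WT median scores of the 9 sites ran from 22.5 (Tap1/Psmb9, which encode a peptide transporter subunit and an immunoproteasome subunit) to 173.6 (H2-D1). All 9 scored lower in Nlrc5F/F than their WT median, for example 25.8 against 86.9 at B2m and 7.33 against 22.5 at Tap1/Psmb9. At Ifrd2 the Nlrc5F/F score of 9.44 lay above the WT median of 7.37 but below the WT scores of B and E, and the WT median was 9.46 when A or C was left out, so no direction can be given. The lowest class I score in Nlrc5F/F was 6.12 at H2-T22/Gm6034, with a WT median of 27.7. The 3 member sites without a Nlrc5F/F peak had WT medians of 8.30 to 11.6, below those of all 9 class I sites. The score and the gene class therefore cannot be told apart in a comparison with these 9. Near the scores of the members, the site of the class I-like gene H2-M3 (WT median 10.22) and the 2 sites beside H2-Q7 also lacked a peak in Nlrc5F/F. So did sites outside the MHC on chromosomes 1 (WT median 9.585) and X (7.684). In Rfx5-/- the 9 class I sites had no listed peak at WT medians of up to 173.6, and Ifrd2 had one at 7.37. The median widths of the member peaks over WT were 134 bp (Lars), 146 bp (Chchd4/Tmem43), 154 bp (Phf12) and 241 bp (Ifrd2), against 149 to 893 bp, with a median of 700 bp, for the 9 class I sites, of which H2-Q6 was the narrowest and narrower than Phf12 and Ifrd2.

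The element was then counted at nuclear coding promoter sites other than the members and the class I list, in 300 bp windows centred on the peaks. Relaxed matches were present at 9 of 213 sites (4.23%) without a WT peak, at 70 of 494 (14.2%) with a peak in 1 WT list, at 16 of 65 (24.6%) in 2 lists, at 9 of 20 (45.0%) in 3 lists, at 5 of 6 (83.3%) in 4 lists and at 1 of 2 in 5 lists. The share over all coding promoters was 3.05%, and 2.59% for the strict form. The share was thus higher with each further WT list up to 4, and the group of 5 lists holds only Prcc, with a relaxed match, and H2-M3, without one. Since the WT lists share a library, the sites in more lists are not independent observations, and no test was made. The 5 of 6 sites in 4 lists were those of Ap2m1, Zfp235, Xrra1, Banp and Zfp317, and the site without a match was that of Gm9758. The match at Ap2m1 lay inside the 300 bp window but outside its WT peaks. At Xrra1 no copy lay in all of its WT peaks. By library, relaxed matches were present at 20.2% to 29.9% of the coding promoter peaks outside class I in the WT lists, members included, at 14.6% in Nlrc5F/F and at 11.1% in Rfx5-/-. Counted by sites, members included, they were present at 105 of 591 (17.8%) with a peak in any WT list. Of the sites with a WT peak and one in Nlrc5F/F, 14 of 23 (60.9%) held a match, and with one in Rfx5-/-, 10 of 18 (55.6%). These differences were not tested. Away from coding promoters the share was 0.163% to 1.88% per list.

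**Figure D3:**
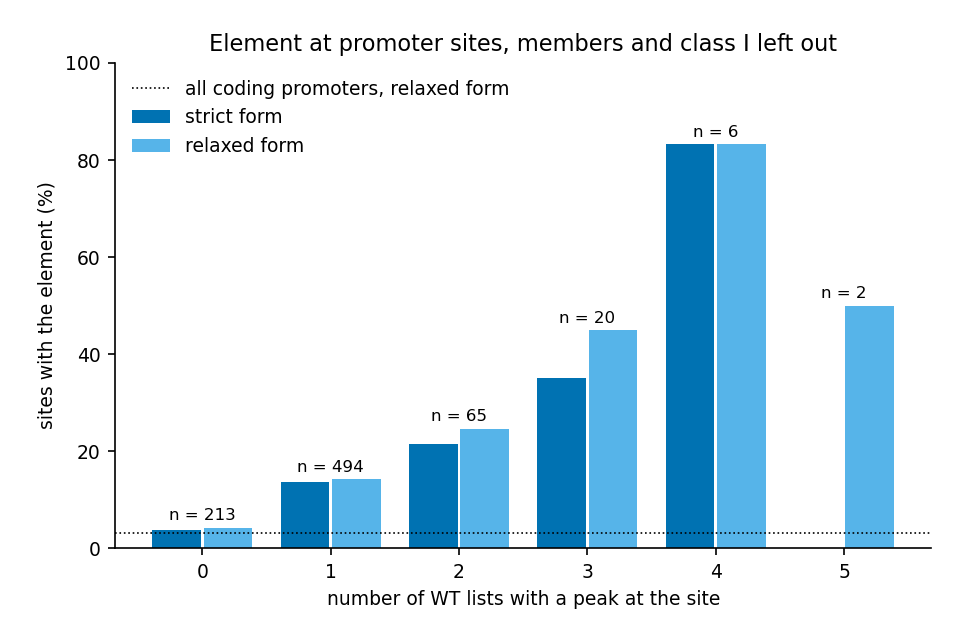
Share of promoter sites (y axis, %, 300 bp windows) that hold the strict or the relaxed element, by the number of WT lists with a peak (x axis), without the members and the class I list. The number of sites stands above the bars and the dotted line is the share over all coding promoters. The relaxed share goes from 4.23% with no WT list to 83.3% with 4, and the group with 5 lists has 2 sites.

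The GC content of the 300 bp windows was 56.7% at Ifrd2, 58.7% at Chchd4/Tmem43, 49.7% at Lars and 52.0% at Phf12, against 55% as the median of all promoters. The observed over expected ratio of CpG was 0.952, 1.00, 0.922 and 0.643 in the same order, above the promoter median of 0.524 at each site. GGGCGG, a GC box, was present at Ifrd2 and Chchd4/Tmem43 and in 43.0% of promoters, CCGGAAG, an ETS motif, at Lars and in 10.8%, and AAGATGG, a YY1 motif, at Phf12 and in 6.22%. All windows of 50 bases and of 36 bases over the 4 WT spans occurred once in the genome (100%). The spans of the class I sites were unique in 68.9% to 100% of windows of 50 bases. Only reads with a single position were kept for the lists, and what this did to the scores of repeated stretches was not tested.

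Genes that work with the members were read against the 3.23% of all coding genes with a peak in any WT list. Among the 21 other genes listed for cytosolic tRNA synthetases and their scaffold, Aimp1 (a scaffold protein of the synthetase complex) had a peak in WT A, B and E, with scores of 5.06, 5.26 and 5.36. This site also lies within 1.5 kb of the TSS of Tbck, so the lists cannot assign it to either gene. None of the 20 other Sin3 complex genes had a peak in any list. Of the 20 other genes of intermembrane space import and its substrates, Chchd2 and Chchd1 had a peak in 1 WT list each. Of the 14 other nuclear envelope genes, Lemd2 (an inner nuclear membrane protein) had a peak in WT A, C and D with scores of 8.55, 8.15 and 8.46, and Banf1 (a chromatin-binding protein of the envelope) in WT B and C with scores of 4.50 and 3.30. The Banf1 site also lies within 1.5 kb of the TSS of Eif1ad and cannot be assigned to either gene. Ifrd1, the paralog of Ifrd2, had no peak. None of the other genes of these lists had a peak in Nlrc5F/F or Rfx5-/-. The 10 enhanceosome genes, Nlrc5 and Rfx5 included, had no peak within 1.5 kb of the TSS in any list, which at these shares (0.738% in Nlrc5F/F and 0.633% in Rfx5-/-) does not set them apart.

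Just outside the choice of members stood genes with WT median scores below, within or above the range of the members. Prcc, which encodes a nuclear protein, had WT scores of 5.36, 4.47, 5.73, 5.15 and 7.43 and a score of 6.62 in Rfx5-/-, with no peak in Nlrc5F/F. H2-M3, a class I-like gene within the MHC, had 10.56, 7.42, 9.40, 10.22 and 15.1 and no peak in either genotype, and its window held an S-X-Y match. Ap2m1, an adaptor subunit of clathrin-coated vesicles, had 14.9, 16.4, 11.6 and 10.8 in A, C, D and E and 7.16 in Rfx5-/-. Zfp235 and Zfp317 (zinc finger genes) and Xrra1 were listed in 4 WT lists and in neither other genotype. Banp (a nuclear matrix protein) and Fbxo9 (an F-box protein) were listed in 4 and in Nlrc5F/F, and Gm9758 in 4 and in both. The WT median scores were 6.73 (Zfp235), 3.19 (Zfp317), 6.41 (Xrra1), 5.55 (Banp) and 10.86 (Gm9758). Fbxo9 was counted by gene, and its merged site, shared with Ick, had a peak in 3 WT lists. Score patterns were compared over the 7 lists by the mean absolute difference of log2 scores, with 3 in place of a missing peak. The promoter sites most like Ifrd2 were those of Gm9758 (0.57) and of mt-Nd6, mt-Cytb and mt-Nd5 (0.66). Chchd4/Tmem43 and Lars were most like each other (0.30), followed by H2-M3 (0.35) and by Clhc1/Rps27a (0.35). Phf12 was most like the 2 sites that flank the H2-Q7 promoter (0.13 and 0.33), neither of which had a peak in Nlrc5F/F or Rfx5-/-.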

How the data were processed

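Chromatin was immunoprecipitated with an antibody against NLRC5 and sequenced. According to the labels and methods, the authors used CASAVA 1.8.2, mapped reads to GRCm38 with Bowtie 0.12.7, kept uniquely mapped reads, and called peaks with MACS2 2.0.10.20130520 without model building, with a shift size from the estimated fragment length, at p = 0.001, with Nlrc5-/- reads as negative control. The lists precede the study's reproducibility filter, which was not applied here. The deposited lists give each peak a score, which the values show to be a −log10 p-value. The methods state no separate settings for the Nlrc5F/F and Rfx5-/- lists.

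Start positions were converted to 1-based coordinates, and peaks overlapping by at least 1 bp were merged into sites. The gene starts of GENCODE M21 (GRCm38) served as TSSs. A gene had a peak when one lay within 1500 bp of its TSS. Ranks were by score, with ties given the best rank. Scores were compared within lists and described across them. Motifs were searched on both strands of GRCm38.p6 (RefSeq assembly). The overlap, motif and copy number steps were tested on simulated data. Python 3.11.15, pandas 2.3.3, numpy 2.4.6 and matplotlib 3.10.9 were used.

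The members and gene lists were chosen with earlier results of these data known. Apart from the members, named genes were those sharing a member site, class I promoter genes and other genes in 4 or 5 WT lists. Also named were genes at the 2 sites most like each member site, and listed genes with peaks in at least 2 lists. Chchd1, Chchd2, Ifrd1, Ick, Tbck, Eif1ad and the genes with the element were named after their values were seen. No test was made, since every genotype is 1 library. Alternatives were other TSS windows and overlaps, a score of at least 5, each pseudo-replicate left out, every transcript start as TSS and windows of 36 bases; the relaxed element was added after the data were seen. No sequence is shown for Lars.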

Additional observations from a re-analysis of the deposited data

Results flagged for a closer look

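Scores, ranks, widths and centres of the 5 WT pseudo-replicates were examined at the 4 member sites, which gives 16 sets of values. In 2 of them a pseudo-replicate stood apart, where the gap to its nearest neighbour divided by the whole range was above 0.710; chance alone gives about 1 in 20. At Ifrd2, the rank of 334 in C was farthest from the others, with a gap of 0.8317 of the range. This rank is the best of 262 tied peaks in the longest WT list, it is 23.3% of the list against 15.7% in A, and the gap was 0.213 of the range for the scores, so that it does not show that C differed at Ifrd2. At Phf12, the score of 17.49 in B was farthest, with a gap of 0.7625 of the range. Both values come from read subsets of 1 library. Without these pseudo-replicates the WT median rank of Ifrd2 was 42.0 in place of 61 and the WT median score of Phf12 was 10.96 in place of 11.61.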

How the results depend on the processing

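The number of members with a peak stayed at 1 in Nlrc5F/F and 1 in Rfx5-/- under each alternative window, overlap, extension and score threshold. In WT it was 5, and 4 with windows of 500 bp, which leave out Phf12. With a score of at least 5, coding genes with a peak fell to 117 (A), 118 (B), 99 (C), 91 (D) and 111 (E) from 177, 187, 221, 178 and 231, to 86 in Nlrc5F/F from 162, and to 52 in Rfx5-/- from 139. With every transcript start as TSS they rose to 250 in Nlrc5F/F and 211 in Rfx5-/-. Of the 24 coding genes in all 5 WT lists, 8 had a peak in Rfx5-/-, which was 4 within 500 bp and 13 when 4 of 5 lists sufficed. Leaving out a pseudo-replicate gave 24 to 27 genes, with 12 to 13 in Nlrc5F/F and 8 to 10 in Rfx5-/-. Other settings moved no count by more than 1.5 times. No paired analysis was possible because the result comes from no test and the other genotypes have 1 library. Sequencing depth is not known for single peaks, and the lists hold no values below the threshold.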
